A study of Mus musculus with 4 samples.

Results

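The imprinted Dlk1-Dio3 locus of the mouse carries one of the largest groups of miRNA genes in the genome, and 90 of the 1096 mouse miRNA probes on the array belong to it. They were chosen by name: every probe, of any letter suffix or arm, with 1 of 43 miRNA numbers of the locus, which gave 45 hairpins with 2 probes each. Levels were measured in small intestine of Tlr3+/+ and Tlr3-/- mice, and TLR3 is an innate immune receptor for double-stranded RNA. The 4 groups were Tlr3+/+ at 0 hr and Tlr3-/- at 0 hr, both non-treated, and Tlr3+/+ at 6 hr and Tlr3-/- at 6 hr, both after total body gamma-irradiation with 10 Gy. Strain, age, sex and how the Tlr3-/- allele was made are not stated in the labels. Each group had 1 array of RNA pooled from 3 mice, so no value has a replicate, and 1 array per group sets the limit on precision.

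At this locus the protein genes Dlk1, Rtl1 and Dio3 are transcribed from the chromosome inherited from the father, and the noncoding RNAs Meg3, Rian and Mirg, with the miRNAs, from the one inherited from the mother. The miRNAs fall into an upstream group, part of which lies antisense to Rtl1, and a downstream group named after miR-379 and miR-410 at its ends. They are best known from brain, embryo and placenta, and most are low in other adult tissues. A mature miRNA binds its targets mainly through its seed, bases 2 to 8 from the 5′ end.

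In the RefSeq annotation of GRCm38.p6 the 45 hairpins lay on chromosome 12 between positions 109571990 and 109743795, a span of 171.8 kb. Meg3 ended just before it at 109571729, Rtl1 ran from 109564900 to 109604418, Rian from 109603945 to 109661716, and Mirg from 109734981 to 109749458. The upstream group ran from Mir673 to Mir370 and held 22 of the probes, and the miR-379/410 cluster held the other 68. Names are given without the species prefix, and an asterisk marks the star strand, the less abundant arm of a hairpin, as the array names it. RefSeq held a mature sequence for 86 of the 90 probes, 27 matched by a name that gives the arm and 59 by assigning the older array name to an arm.

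The hairpin of Mir494, whose 3p arm was the brightest member on every array, is shown first, with both mature arms in capitals. It lies on the plus strand at chr12:109715318-109715402, between the annotated ends of Rian and Mirg, and is 85 bases long.
Mir494 hairpin: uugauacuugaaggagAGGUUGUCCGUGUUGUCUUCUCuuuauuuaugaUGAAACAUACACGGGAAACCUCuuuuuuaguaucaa
The mature miRNAs on which the results turn follow, with the seed in capitals. The first set are the members more than 5 blank SDs above the blank spots on every array, except miR-487b.
miR-494: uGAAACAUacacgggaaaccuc
miR-370: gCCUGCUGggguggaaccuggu
miR-667: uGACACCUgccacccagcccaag
miR-667*: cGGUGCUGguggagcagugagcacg
miR-665: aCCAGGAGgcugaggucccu
miR-665*: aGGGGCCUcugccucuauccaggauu
miR-668: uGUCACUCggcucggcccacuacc
miR-540-3p: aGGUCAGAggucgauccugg
miR-379: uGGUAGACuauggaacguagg
miR-341: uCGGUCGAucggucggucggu
The second set are the other arms of hairpins seen with both arms on every array, miR-337-3p and miR-134*, which stood at an end of a comparison, and miR-127, shown for its place antisense to Rtl1.
miR-494*: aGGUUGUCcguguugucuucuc
miR-370*: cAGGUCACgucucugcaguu
miR-434-3p: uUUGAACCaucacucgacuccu
miR-434-5p: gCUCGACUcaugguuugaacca
miR-487b*: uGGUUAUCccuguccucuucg
miR-337-3p: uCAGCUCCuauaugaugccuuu
miR-134*: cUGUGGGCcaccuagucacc
miR-127: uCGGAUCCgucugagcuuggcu
No seed is shared among these 18 sequences. Over the 86 matched probes there were 83 distinct seeds, and 3 seeds were each shared by a pair of members: AUGUAAC by miR-411* and miR-379*, GGUUGUC by miR-494* and miR-410*, and UGGAUAU by miR-376c* and miR-376b*. The seed of miR-494, GAAACAU, was found in no other member.

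The arrays carried 1818 blank spots, whose mean raw intensity, with 5% left out at each end, was 24.5 and 24.9 at 0 hr (Tlr3+/+, then Tlr3-/-) and 24.7 and 27.3 at 6 hr (likewise). A probe was called detected above the blank mean plus 2 SD, which was 25.8, 26.5, 26.1 and 29.2 in that order, and 5.17% to 6.44% of the blank spots themselves passed it. The brightest of 3 negative controls averaged 26.2, 26.7, 27.5 and 29.7, past the threshold on every array, so a call near it may hold no miRNA. The deposited names read as 1 slide for both 0 hr arrays and 2 further slides for the 6 hr arrays, so slide cannot be told apart from irradiation, or from genotype at 6 hr. Non-treated intestine was not sampled at 6 hr, so time and irradiation cannot be told apart either, and the genotype labels were not checked because Tlr3 mRNA was not measured. The tissue label was checked against miRNAs of intestinal epithelium, of whose 25 probes 22 (88%) were detected on all 4 arrays and 13 passed 3 times the threshold on at least 1, where all mouse probes had 52.3% and 11.2%. Against the same 52.3%, 14 of 28 neuron probes (50%) were detected on all 4 arrays, 12 of 16 of smooth muscle and stroma (75%), 7 of 11 of blood cells (63.6%) and 3 of 17 of striated muscle (17.6%). The part of any of these cell types in the members' signal was not tested. In whole tissue, fewer cells of a type and less RNA per cell cannot be told apart.

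Most Dlk1-Dio3 probes read close to the blank spots. Of the 90 probes, 64 were detected in Tlr3+/+ at 0 hr (71.1%), against 71.1% of all mouse probes. In Tlr3-/- at 0 hr 54 were detected (60.0%), against 65.8% of mouse probes. In Tlr3+/+ at 6 hr the count was 56 (62.2%), against 71.0%, and in Tlr3-/- at 6 hr it was 45 (50%), against 64.9%. The members' share equalled the background at 0 hr in Tlr3+/+ and lay below it on the other arrays, lowest on the array with the brightest blanks. Probes for viral miRNAs, which served as a further comparison, were detected at 53.8% to 76.9%.

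Detection across arrays was less complete than for mouse probes in general. On all 4 arrays 34 members were detected (37.8%), against 52.3% of mouse probes and 33.3% of the 39 virus probes. On no array were 17 detected (18.9%), against 14.6% of mouse probes and 12.8% of virus probes. A further 12 passed on 1 array, 10 on 2 and 17 on 3. Only miR-494 passed 3 times the threshold on any array, where 11.2% of mouse probes did so on at least 1.

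**Figure D1:**
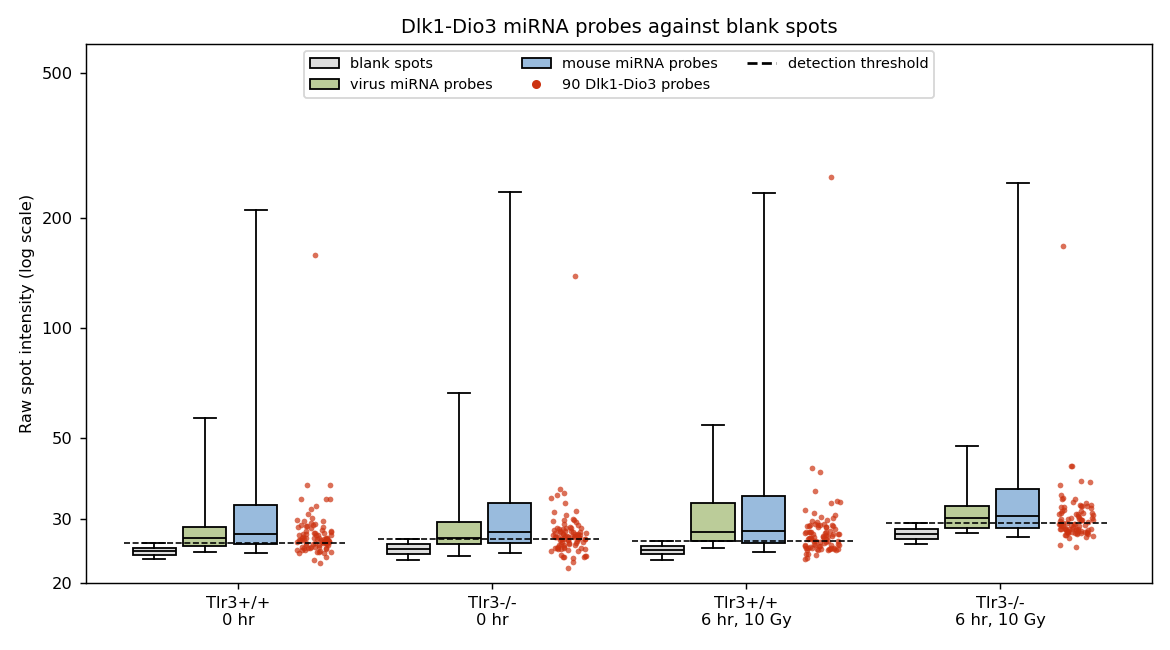
Raw spot intensity on a log scale for the 90 Dlk1-Dio3 probes (points) on each of the 4 arrays, beside boxes for 1818 blank spots, 39 virus probes and 1096 mouse probes; boxes show quartiles and median, whiskers the 5th to 95th percentile, and the dashed line the detection threshold. The points crowd around the threshold on every array except miR-494, at 158, 139, 260 and 168 from left to right.

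The plot of raw intensity against blanks shows the same crowding on every array. The median raw intensity of the members was 26.5, 26.9, 26.8 and 29.2 in the order of the thresholds above, and that of all mouse probes 27.2, 27.7, 27.8 and 30.5. In units of the blank SD above the blank mean, the members' medians were 3.13, 2.47, 2.97 and 2.04, against 4.39, 3.50, 4.44 and 3.44 for mouse probes. The members' medians were therefore just above the limit of 2 on every array, and below those of mouse probes. Virus probes had 3.38, 2.21, 4.35 and 3.20, above the members on 3 of the 4 arrays.

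Beyond 5 blank SDs on all 4 arrays stood 11 members (12.2%), against 34.5% of mouse probes and 25.6% of virus probes. Beyond 10 stood 4 members (4.44%), miR-370, miR-487b, miR-494 and miR-667, against 23.0% of mouse probes. Beyond 20 stood miR-494 alone (1.11%), against 16.2%. The order of the members was partly kept between arrays: Spearman's rho of raw intensity over the 90 probes was 0.742 to 0.807 in the 6 pairs of arrays. Over all mouse probes it was 0.862 to 0.893 and over virus probes 0.701 to 0.887. Over the 29 members detected on 1 array or none it was -0.116 to 0.375. Those 29 were chosen by their low values on the same arrays, so their range cannot be set against the others. These values carry no test. Probes may differ in binding and background, and the part of that in the kept order was not tested.

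The members nearest to the threshold differed between arrays. In Tlr3+/+ at 0 hr miR-758* lay just inside at 25.8 and miR-485 just outside at 25.7. In Tlr3-/- at 0 hr miR-431* read 26.5 and miR-543 read 26.4. In Tlr3+/+ at 6 hr miR-376a* read 26.13 and miR-376b* read 26.05, and in Tlr3-/- at 6 hr miR-381 read 29.3 and miR-411* read 29.2. Each of these pairs was separated by less than 1 blank SD.

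miR-494 is a 3p arm of the miR-379/410 cluster. Non-treated, it read 158 in Tlr3+/+ and 139 in Tlr3-/-. After irradiation it read 260 in Tlr3+/+ and 168 in Tlr3-/-. It stood 214.1, 141.8, 335 and 151 blank SDs above the blank mean in that order, highest in irradiated Tlr3+/+ intestine. Its star strand, miR-494*, from the 5p arm of the same hairpin, read 29.7, 27.5, 28.7 and 32.6 and stood 3.30 to 8.27 blank SDs above the blanks. The arms differed in how they lay across arrays, since miR-494 was highest in irradiated Tlr3+/+ and miR-494* in irradiated Tlr3-/-, where the blanks were brightest too. A difference in height between probes is not a difference in abundance, because each probe labels and binds in its own way.

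The hairpins next to Mir494 read near the threshold. Mir679 starts 259 bp downstream, and its miR-679-3p read 27.8, 28.9, 28.5 and 30.8, detected on all 4 arrays. Mir329 starts 1837 bp upstream, and miR-329 read 30.3, 28.2, 28.9 and 32.7. Mir666 starts 1767 bp downstream, with miR-666-5p detected on 3 arrays and miR-666-3p on none, and Mir758 starts 2508 bp upstream, with miR-758* on 3 arrays and miR-758 on 1. None of these neighbours passed 3 times the threshold on any array.

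Within the upstream group, 12 of the 22 probes were detected on all 4 arrays (54.5%), close to the 52.3% of mouse probes. In the same order of arrays as for the thresholds, kept for all values that follow, miR-370 read 37.2, 34.96, 40.4 and 42. miR-665* read 37.2, 36.2, 31.7 and 33.5, and miR-665, the 3p arm of the same hairpin, 29.3, 29.98, 31.2 and 38.0. miR-540-3p read 34.0, 31.4, 33.5 and 32.8. In raw intensity miR-665* was higher at 0 hr than at 6 hr in both genotypes, and miR-370 and miR-665 were higher at 6 hr. miR-540-3p was highest in non-treated Tlr3+/+. After normalization the 6 hr over 0 hr log2 ratio of miR-370 in Tlr3+/+ was -0.02, and -0.08 to 0.07 under other settings.

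Other upstream members stood closer to the blanks. miR-341 read 29.6, 29.8, 30.2 and 34.0. miR-127, which in the mouse pairs fully with the Rtl1 transcript and guides its cleavage, read 30.9, 28.4, 29.4 and 32.5. miR-337-3p read 28.7, 26.7, 27.5 and 37.2, from 2.29 blank SDs above the blanks in non-treated Tlr3-/- to 10.6 in irradiated Tlr3-/-. The array with the highest raw value was irradiated Tlr3-/- for all 3, the array whose blanks were also brightest. miR-136, a further miRNA antisense to Rtl1, was detected on 1 array, in Tlr3+/+ at 0 hr at 27.2.

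In the miR-379/410 cluster, 22 of the 68 probes were detected on all 4 arrays (32.4%), against 52.3% of mouse probes. miR-667 read 34.0, 35.4, 41.3 and 41.97, miR-487b read 34.0, 34.2, 33.7 and 37.8, and miR-668 read 32.04, 33.2, 35.9 and 34.8. miR-667*, the other arm of the miR-667 hairpin, read 32.6, 29.8, 30.9 and 34.4, and miR-379, whose gene opens the cluster, 29.8, 31.6, 28.6 and 34.1. In raw intensity miR-667 and miR-668 were higher at 6 hr than at 0 hr in both genotypes. miR-487b, miR-667* and miR-379 were highest in irradiated Tlr3-/-, where the blanks were brightest too. Above the blanks miR-668 was lower at 6 hr in Tlr3-/-, at 8.07 blank SDs against 10.4 at 0 hr. Its normalized log2 ratio there was -0.04. miR-409-3p, near the far end, read 29.1, 30.8, 29.8 and 31.5.

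miR-134 is known to repress Limk1 in dendrites of rat neurons. It read 28.6, 27.9, 27.7 and 26.9 and was not detected in irradiated Tlr3-/-, where the threshold was 29.2. Its star strand miR-134* read 27.5, 27.7, 33.1 and 32.8, higher at 6 hr in both genotypes. In the miR-376 family, known for A-to-I editing of its precursors, miR-376a was detected on all 4 arrays at 27.4, 29.6, 28.5 and 31.04. miR-376b and miR-376c were detected on 3 arrays, and miR-376b* and miR-376c* on none. An edited miR-376 would differ from the printed reference, and editing was not measured.

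The 17 members detected on no array were miR-127*, miR-136*, miR-154*, miR-299, miR-323-3p, miR-341*, miR-376b*, miR-376c*, miR-377, miR-380-3p, miR-409-5p, miR-539-3p, miR-540-5p, miR-541*, miR-543, miR-544-3p and miR-666-3p. Their raw intensities reached no more than 25.5 and 26.4 in non-treated Tlr3+/+ and Tlr3-/-, and 26.05 and 28.7 in irradiated Tlr3+/+ and Tlr3-/-. Those detected on 1 array were miR-136, miR-300*, miR-369-3p, miR-369-5p, miR-379*, miR-412-5p, miR-431, miR-495*, miR-496, miR-496*, miR-544-5p and miR-758. Those detected on 2 arrays were miR-376a*, miR-410*, miR-433, miR-485, miR-541, miR-543*, miR-654-3p, miR-654-5p, miR-673-5p and miR-679-5p. These 39 members were not well above background on at least 2 of the arrays, where their values have only an upper bound.

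**Figure D2:**
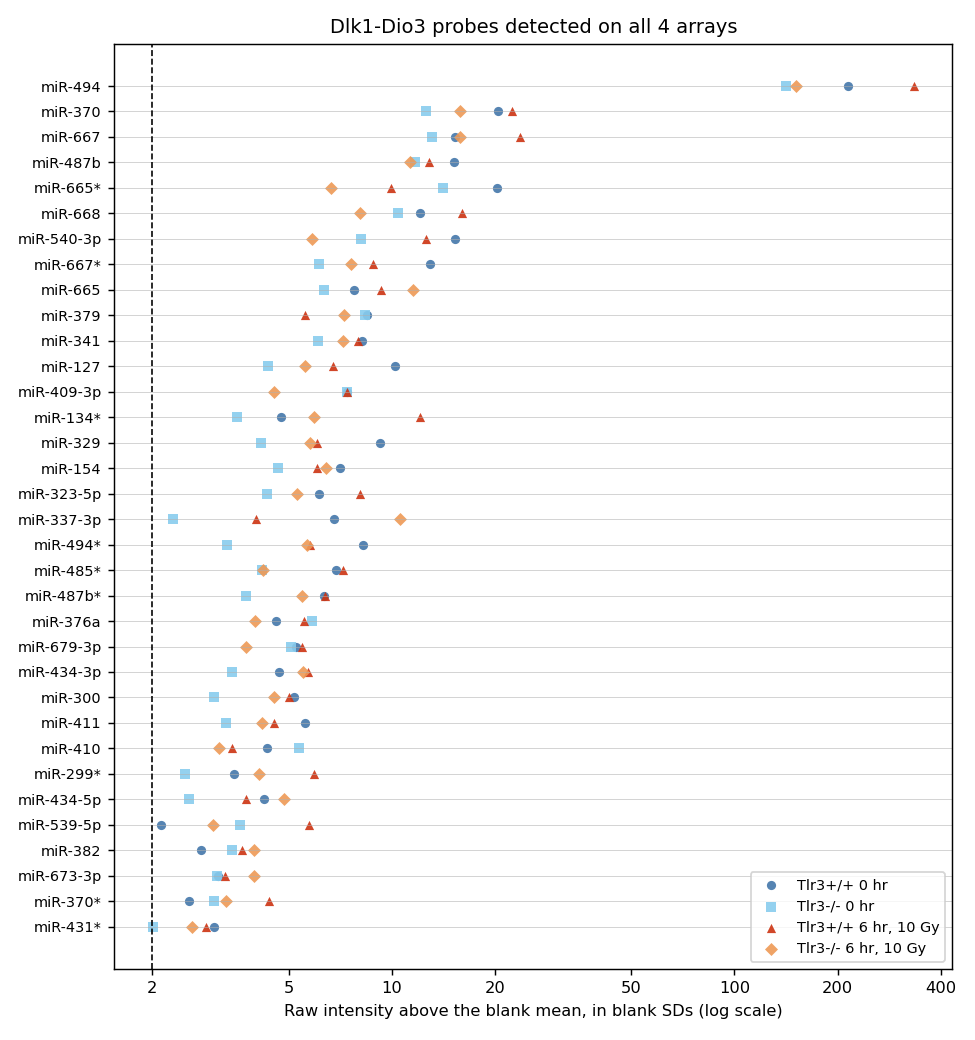
Raw intensity above the blank mean in blank SDs, on a log axis, for the 34 Dlk1-Dio3 probes detected on all 4 arrays, 1 symbol per array; the dashed line is the detection limit of 2. miR-494 lies at 141.8 to 335, while every other probe lies under 24, and the symbols of different arrays interleave.

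The plot of the 34 probes by array expresses each value against its own array's blanks, which removes the brighter background of irradiated Tlr3-/-. In these units irradiated Tlr3+/+ was the highest array for miR-494, miR-370, miR-667, miR-668 and miR-134*, and non-treated Tlr3+/+ for miR-487b, miR-665*, miR-540-3p, miR-667*, miR-379, miR-341 and miR-127. miR-665 and miR-337-3p were highest in irradiated Tlr3-/-. Blank SDs were smaller in the Tlr3+/+ arrays, at 0.624 and 0.703 against 0.804 and 0.928 in Tlr3-/-, which raises these distances in Tlr3+/+.

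Both arms were detected on all 4 arrays for 6 of the 45 hairpins, those of miR-370, miR-434, miR-487b, miR-494, miR-665 and miR-667. For 22 hairpins 1 arm was detected on all 4 arrays and for 17 neither was, but 0 hairpins had both arms undetected on every array. Of the 3p arms 21 of 45 were detected on all 4 arrays and 11 on none, and of the 5p arms 13 of 45 and 6. Among probes whose arm is marked by an asterisk or its absence, 16 of 31 unstarred and 9 of 31 starred names were detected on all 4. Of all mouse probes 52.3% were detected on all 4 arrays and 14.6% on none. Of the 6 hairpins, miR-434 gave 27.4, 27.6, 28.7 and 32.4 for its 3p arm and 27.2, 26.9, 27.3 and 31.8 for its 5p arm. For miR-370* the values were 26.1, 27.3, 27.7 and 30.4, and for miR-487b* 28.5, 27.9, 29.1 and 32.4, all within a few units of the threshold.

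**Figure D3:**
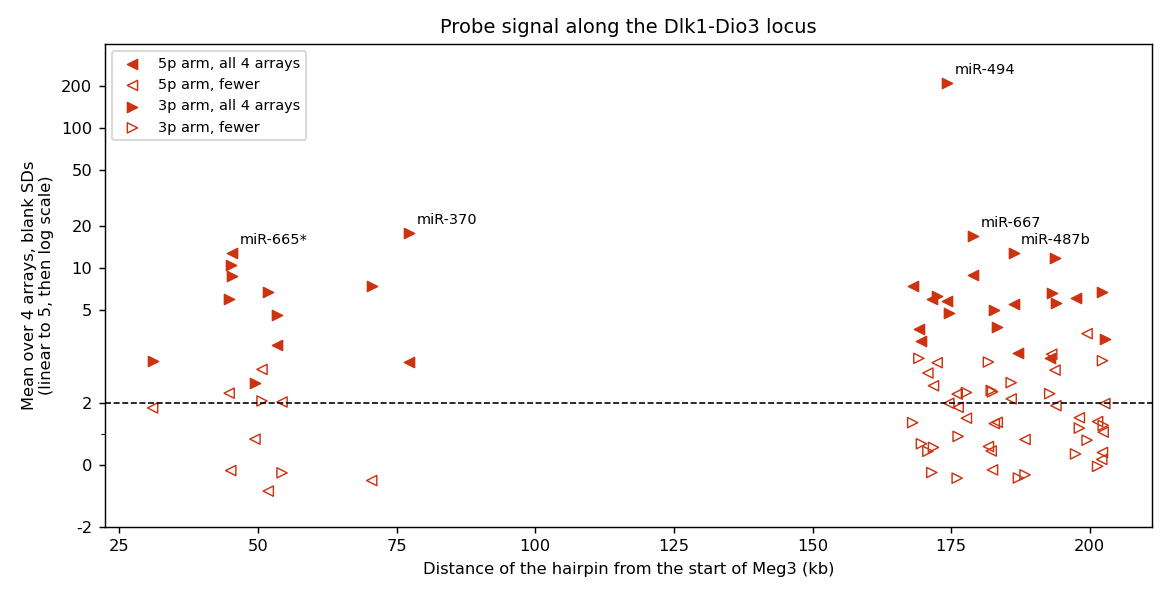
Mean distance of each of the 90 probes from the blank mean over 4 arrays, in blank SDs (linear to 5, then log), against the distance of its hairpin from the start of Meg3 in kb; left-pointing symbols are 5p arms and right-pointing 3p arms, filled where detected on all 4 arrays. Filled and open symbols are mixed in both groups of hairpins, and miR-494 alone stands above 20.

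Along the locus, detected and undetected probes were mixed in both groups, as the plot by distance from Meg3 shows. The share detected on all 4 arrays was 54.5% in the upstream group and 32.4% in the miR-379/410 cluster, against 52.3% of mouse probes. The upstream group had a median over its probes of 27.7 for the mean raw intensity and the miR-379/410 cluster 27.1. A further 20 mouse probes of miRNAs annotated to the locus but outside the 43 numbers were set beside them. Of these 7 were detected on all 4 arrays (35%) and 1, miR-3072*, passed 3 times the threshold.

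Base composition moved with the signal. The 33 matched members detected on all 4 arrays had a median of 54.5% G and C in the mature sequence, with a range of 38.1% to 72.7%. The 16 matched members detected on none had a median of 45.5%, from 31.8% to 76.2%, and the 37 detected on 1 to 3 arrays also 45.5%. Signal here is the mean distance from the blank mean over 4 arrays, in blank SDs. Across the 86 matched members, its Spearman's rho with G and C share was 0.385, and 0.402 without miR-494. It was 0.214 over the 27 members whose array name gives the arm, which need no assignment, and 0.452 over 163 other mouse probes matched by full name. miR-494 itself, at 45.5%, stood at the median of the undetected members. The probes share the arrays and the hybridisation, and the part of base composition in the detection counts was not tested.

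**Figure D4:**
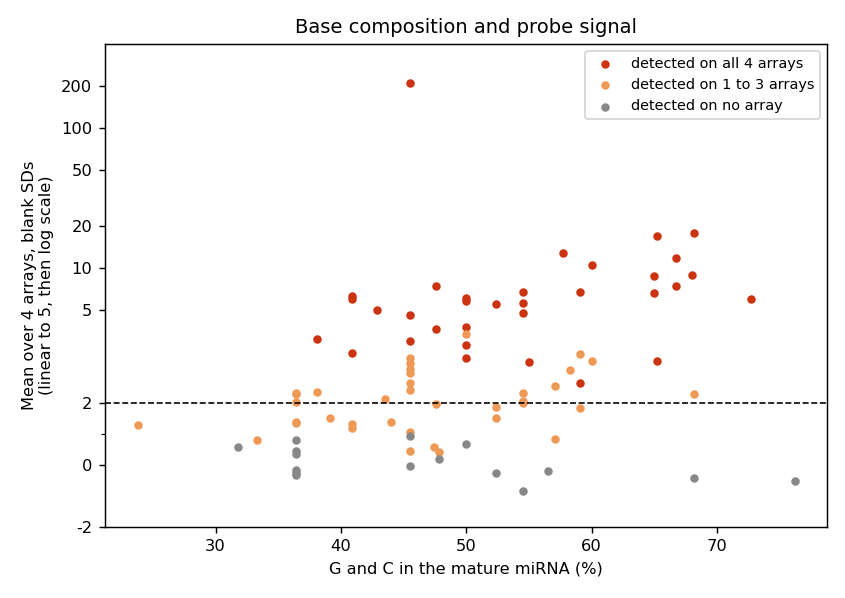
Mean distance from the blank mean over 4 arrays, in blank SDs (linear to 5, then log), against the share of G and C in the mature miRNA for 86 Dlk1-Dio3 members, coloured by the number of arrays with detection. Members detected on all 4 arrays reach from 38.1% to 72.7%, and miR-494, the highest point, is at 45.5%.

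The first comparison asked how irradiation altered these miRNAs in intestine with TLR3. Ratios were taken from background-corrected, quantile-normalized log2 intensities, for probes detected on both arrays, with 6 hr over 0 hr. Of 51 members compared in Tlr3+/+, 0 were higher by 2-fold or more and 0 lower, against 1.76% and 0% of the 680 mouse probes. At 1.5-fold the counts were also 0 and 0, against 2.94% and 0.441%. The correction adds an offset of 50, which shrinks the ratios of dim probes such as these, so the counts do not show that the levels were equal. For scale, 8 repeated spots for each of 2 spike controls varied within arrays with a pooled log2 SD of 0.105. This gives 0.148 for a ratio, called the spike spread below, and leaves out the spread between mice and arrays. It was taken on raw intensities without the offset, so it is wide for the shrunken ratios of dim members.

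miR-494 had the highest member ratio in Tlr3+/+, 0.51 on the log2 scale, and ranked 23 of 680 from the top. Next came miR-134* at 0.11 and miR-667 at 0.08. The lowest were miR-665* at -0.19, miR-376c at -0.08 and miR-667* at -0.08. Without miR-494 the other 50 members lay between -0.19 and 0.11. The median over the 51 members was 0.00, beside -0.01 for mouse probes, and 98.0% of members against 87.1% of mouse probes lay within 0.25 of 0.

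In Tlr3-/- intestine 40 members were compared and 0 were 2-fold higher or lower at 6 hr, against 0.48% and 0.16% of 625 mouse probes. At 1.5-fold 0 members passed in either direction, against 1.6% and 0.96%. The highest ratio was that of miR-337-3p, 0.20, with raw values of 26.7 and 37.2. miR-494 stood at 0.12, rank 55 of 625, and miR-665 at 0.12. The lowest were miR-665* at -0.16, miR-409-3p at -0.06 and miR-410 at -0.05. The median was 0.02, beside 0.00 for mouse probes. miR-665* was thus the lowest member in both genotypes, with values just beyond the spike spread, and its sign turned to 0.01 in Tlr3-/- when arrays were scaled to the spike controls.

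The genotypes were then compared without irradiation, Tlr3-/- over Tlr3+/+ at 0 hr. Of 47 members 0 were 2-fold higher and 0 lower, against 0.305% and 0% of 656 mouse probes, and at 1.5-fold 0 passed, against 0.457% in each direction. miR-494 had the lowest member ratio, -0.30, the 6th lowest of the 656. The next lowest were miR-540-3p and miR-667*, both at -0.09, and the highest were miR-376a at 0.05, miR-410 at 0.05 and miR-380-5p at 0.04. All members except miR-494 lay between -0.09 and 0.05, inside the spike spread. That spread carries no offset, so this does not show that the levels were equal. With subtraction of the blank mean 0 members were 2-fold higher and 3 lower. The median was -0.01, beside 0.00.

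At 6 hr after irradiation 40 members were compared between genotypes, and 0 were 2-fold higher or lower, against 0% of 645 mouse probes in each direction. At 1.5-fold 0 members were higher, against 0%, and 1 was lower, miR-494, against 0.465%. Its ratio was -0.69, the third lowest of 645, with raw values of 260 in Tlr3+/+ and 168 in Tlr3-/-. It was followed by miR-540-3p at -0.06 and miR-134* at -0.05. The highest were miR-337-3p at 0.18, miR-665 at 0.11 and miR-379 at 0.08. The median was 0.01, beside 0.01 for mouse probes. These arrays lay on different slides as the names read, so slide and genotype cannot be told apart here.

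**Figure D5:**
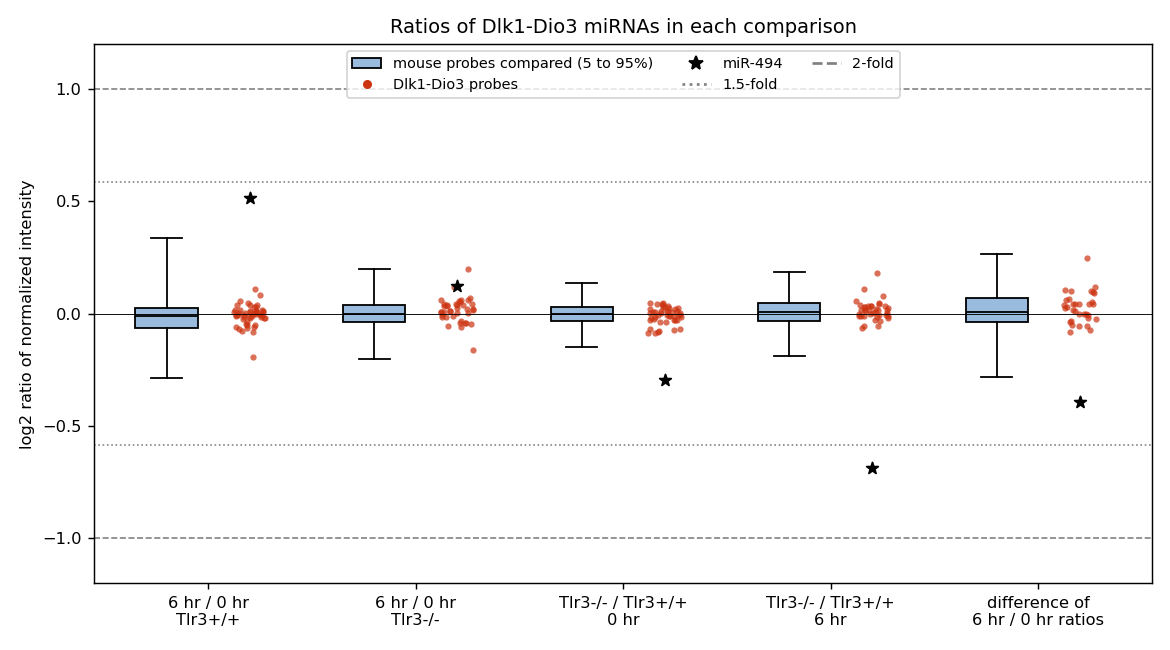
Log2 ratios of normalized intensity for Dlk1-Dio3 probes detected on the arrays compared (points; star for miR-494) in each comparison and for the difference of the irradiation ratios, beside boxes of all mouse probes compared (quartiles, median, whiskers 5th to 95th percentile); dotted lines mark 1.5-fold and dashed lines 2-fold. miR-494 runs from 0.51 to -0.69, while the other members stay between -0.19 and 0.25.

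The plot of ratios shows miR-494 apart from the other members in each comparison except irradiation in Tlr3-/-, where miR-337-3p was higher. The other members are dimmer, and the offset shrinks their ratios more than that of miR-494. Over virus probes the irradiation ratios ran from -0.20 to 0.11 in Tlr3+/+ and from -0.68 to 0.15 in Tlr3-/-. Their genotype ratios ran from -0.23 to 0.34 at 0 hr and from -0.39 to 0.09 at 6 hr. The comparisons share arrays, so the positions of miR-494 in them are not independent of each other: its irradiated Tlr3+/+ value enters both the highest and the lowest ratio. The irradiation ratio of Tlr3-/- minus that of Tlr3+/+ bears on whether the 2 genotypes responded alike. Of 34 members detected on all 4 arrays, 0 had a difference of 1 or more in either direction, against 0% higher and 0.524% lower of 573 mouse probes. At the 1.5-fold limit 0 members passed, against 0.873% and 1.75%. miR-494 had the lowest difference, -0.39, the 19th lowest of 573, followed by miR-668 at -0.08 and miR-539-5p at -0.07. Over virus probes the difference ran from -0.73 to 0.29. The highest were miR-337-3p at 0.25, miR-667* at 0.12 and miR-494* at 0.11. The irradiation ratios had opposite signs in the genotypes for 15 of the 34, but 0 of these had both ratios beyond the spike spread of 0.148. The offset shrinks the ratios of dim members but not that spread, so this count does not show that the genotypes responded alike. The difference has no test, because 1 array per group leaves no residual spread.

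In 8 settings with other scalings or background corrections, miR-494 kept its sign in all 5 contrasts. Its irradiation ratio was 0.57 to 0.63 in Tlr3+/+ and 0.14 to 0.35 in Tlr3-/-. Its genotype ratio was -0.64 to -0.16 at 0 hr and -1.13 to -0.55 at 6 hr, and its difference was -0.49 to -0.24. It was the only member past 3 times the detection threshold, so its ratios are the least affected by the offset. These ranges compare settings on the same 4 arrays and hold no spread between mice. The place of miR-494 as highest or lowest member was not always kept. In the authors' values, which carry no offset, miR-539-5p was higher for irradiation in Tlr3+/+ (1.37). There miR-337-3p was lower for genotype at 0 hr (-1.41), and miR-539-5p for the difference (-1.58). For genotype at 6 hr 0 members were 2-fold lower in them.

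A limma fit averaged over both genotypes or both times included the 61 members detected on at least 2 arrays among 797 mouse probes, with 1 residual degree of freedom. Its p measures the disagreement between genotypes, not a spread between pools. For irradiation 0 members had an adjusted p under 0.05, against 0% of the 797, and 2 had an unadjusted p under 0.05, miR-665* and miR-667, against 12.4%. The lowest was miR-665*, with an averaged change of -0.18 and a limma adjusted p of 0.220, lower at 6 hr in both genotypes. For genotype 0 members passed, against 0%, and 1, miR-540-3p, had an unadjusted p under 0.05, against 4.77%, with a change of -0.07 and a limma adjusted p of 0.773. miR-494 had an averaged irradiation change of 0.32 (SE 0.13, limma adjusted p 0.479) and a genotype change of -0.49 (SE 0.13, limma adjusted p 0.773). With scaling to the spike controls miR-494 was called in both terms, at 0.47 (limma adjusted p 0.00206) and -0.54 (limma adjusted p 0.00220), where 35 and 3 of the 797 probes were called.

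Members detected on only 1 array of a pair gave lower bounds, taken against the lowest signal above background on the other array, or the dim probe's own signal where that was higher. Between 0 and 6 hr in Tlr3+/+, 13 members were detected at 0 hr only and 5 at 6 hr only, and the highest bounds were at least 1.03-fold each way. Of all mouse probes, 779 were detected at 0 hr, 778 at 6 hr and 680 on both. In Tlr3-/- the counts were 14 at 0 hr only and 5 at 6 hr only, with bounds of at least 1.04-fold and 1.01-fold. There 721 mouse probes were detected at 0 hr, 711 at 6 hr and 625 on both. At 0 hr 17 members were detected in Tlr3+/+ only and 7 in Tlr3-/- only, with bounds of at least 1.06-fold and 1.07-fold. The mouse probes were 779 in Tlr3+/+, 721 in Tlr3-/- and 656 on both. At 6 hr the counts were 16 and 5, with 1.04-fold and 1.02-fold, where mouse probes had 778, 711 and 645 on both. Each pair had more members on the array with more detected mouse probes, but the size of the split did not follow the mouse counts. In Tlr3+/+ mouse probes were nearly equal at 0 and 6 hr, at 779 and 778, while members split 13 and 5. In Tlr3-/- they were 721 and 711, with members at 14 and 5. Between genotypes the mouse counts lay further apart, with member splits of similar size. The part of overall detection in these splits was not tested. No bound reached 1.5-fold.

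The authors' normalized intensities carry no offset, so dim probes keep wider ratios there. In them 3 members were at least 2-fold higher and 2 lower at 6 hr in Tlr3+/+, against 7.06% and 3.68% of mouse probes. The higher were miR-539-5p (log2 1.37), miR-134* (1.28) and miR-758* (1.02), and the lower miR-376c (-1.75) and miR-665* (-1.09). In Tlr3-/- miR-337-3p was higher (2.26) and miR-665* lower (-1.04), against 2.88% and 3.2%. At 0 hr miR-337-3p (-1.41), miR-494* (-1.17) and miR-127 (-1.08) were lower in Tlr3-/- and 0 members higher, against 2.74% and 1.07%. At 6 hr miR-337-3p was higher in Tlr3-/- (1.68) and 0 members lower, against 2.17% and 4.5%.

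The same values gave 5 members with a difference of the irradiation ratios of 1 or more, miR-337-3p (3.09), miR-494* (1.41), miR-434-5p (1.23), miR-329 (1.19) and miR-127 (1.08), against 5.58% of mouse probes. miR-539-5p was at -1.58, against 5.76%. Most of these rest on raw intensities within a few units of the threshold: miR-539-5p went from 25.8 to 28.7 in Tlr3+/+, and miR-337-3p read 26.7 in non-treated Tlr3-/-, where the threshold was 26.5. miR-665* alone passed 2-fold in both genotypes, from 37.2 to 31.7 in Tlr3+/+ and from 36.2 to 33.5 in Tlr3-/-.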

How the data were processed

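Total RNA was labelled with Hy5 using the miRCURY LNA kit, per the labels' protocols, and hybridised in 1 colour. Per the file headers, the authors deposited for 3136 spots per array the raw intensity and 2 intensities derived from it, background-subtracted and globally normalized. The ratio of SD to mean that they deposited for control spots was not used. The authors' normalized intensity is the raw value minus 1 constant per array times 1 factor, and is empty where the raw value did not pass the detection threshold, which held with 0 exceptions. It equals the deposited series table within 0.005, linear and uncentred, with a median of 25 over filled probes on each array. The scanner and software are not stated in the labels or headers.

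Raw intensity was corrected with normexp on the blank spots (limma 3.58.1, R 4.3.3, offset 50), quantile-normalized over 1135 miRNA probes, and put on the log2 scale, so no log2 values deposited by the authors were used. Probes of equal rank get equal values, and the offset understates changes of dim probes. The 39 virus probes entered the normalization. Ratios used probes detected on both arrays, with no test. The limma fit (lmFit, eBayes, Benjamini-Hochberg over 797 probes) had terms for genotype and irradiation, and was tested on simulated data. Irradiation changes were planted there only in probes further above the blanks than every member except miR-494. The simulation therefore does not cover changes in the other members.

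The members and lists were chosen with earlier results of these data known. Members named were those past 3 times the threshold, the 10 with the highest mean raw intensity, the 3 members at each end of every comparison, hairpins with both arms detected on all 4 arrays, and those nearest to the threshold. Others, such as miR-127, miR-134, miR-136, miR-341 and the neighbours of Mir494, and miR-3072*, were named after their values were seen. Sequences and positions come from RefSeq (GRCm38.p6). Array names without an arm were assigned to arms from general knowledge of miRNA naming, and miR-487b, miR-376c, miR-485 and miR-539-3p had no match. Figures and joins used Python 3.11.15, pandas 2.3.3 and matplotlib 3.10.9.

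Alternatives were other detection thresholds, cyclic loess, scaling to the spike controls, to the 75th percentile or to the median of always-detected probes, the authors' values, subtraction of the blank mean, an uncorrected background, an offset of 16, dropping the detection filter or raising it to 3 times the threshold, and limits of 1.5-fold and 3-fold. Thresholds from the blanks without trimming were added after seeing the data.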

Additional observations from a re-analysis of the deposited data

How the results depend on the processing

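With 1 pooled array per group, no setting adds a spread between mice. No paired analysis was possible because each group held 1 array and the labels pair none. Of the summary values under other settings, 178 stayed within the limits set and 40 moved. Members' medians near 0 changed sign in some settings, reaching 0.0039 for genotype at 0 hr (-0.01 in the report) and -0.07 at 6 hr (0.01). At the blank mean plus 3 SD, 35 members were detected in Tlr3-/- at 0 hr in place of 54; above the highest negative control, 36 in Tlr3+/+ at 6 hr in place of 56; and at 3 times the threshold, 1 (miR-494) on each array and on all 4. Scaling to the spike controls moved the members' median to 0.17 for irradiation in Tlr3-/-, -0.26 for genotype at 0 hr and 0.20 for the difference, where the median of all mouse probes also shifted (-0.25 at 0 hr). With it 1 member, miR-494, was called in each limma term. Subtraction of the blank mean, which has no offset by construction, put 3 members 2-fold higher and 2 lower with irradiation in Tlr3+/+, 2 and 1 in Tlr3-/- (median 0.26), 0 and 3 for genotype at 0 hr (median -0.28), 1 and 1 at 6 hr, and 5 and 1 in the difference (median 0.27). The authors' values gave 3 and 2, 1 and 1 (median 0.30), 0 and 3 (median -0.27), 1 and 0, and 5 and 1 (median 0.31) in the same order. At 3 times the threshold the medians are those of miR-494 alone, 0.51, 0.12, -0.30, -0.69 and -0.39. At 1.5-fold 1 member, miR-494, was lower at 6 hr in Tlr3-/-. Signal over background limits all members except miR-494: 29 of the 90 were detected on 1 array or none.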
